A study of Mus musculus with 8 samples.

Results

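The change in the wild-type (WT) mouse heart between embryonic day 8.5 (E8.5) and E9.5 was examined in 4 of the 8 RNA sequencing libraries of the series, 2 from E8.5 WT hearts and 2 from E9.5 WT hearts. The libraries of each stage were taken by their labels. All 4 came from embryos on a C57BL/6 background that the labels call wild type. According to the study, these controls were *Dgcr8* loxP/loxP; *ROSA26* mTmG/+ embryos without *Mesp1*-Cre, so that *Dgcr8*, a gene of microRNA processing, was floxed but not excised at either stage. The other 4 libraries came from hearts labelled Mesp1Cre/+; Dgcr8-/- (cKO), with 2 at each stage. In cKO embryos the Cre acts in progeny of *Mesp1*-expressing mesoderm and deletes *Dgcr8* there. The cKO libraries were used to estimate the spread between replicates and for a single comparison of the stage change at the end. The study speaks of independent biological replicates, but the number of hearts in each library was not given. E8.5 replicate 1 stood apart in markers of uterine natural killer cells, whose values are given below. Every p-value below therefore measures the spread between these libraries.

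Between these stages the heart tube, which already beats, loops and starts to balloon into atrial and ventricular chambers. The chamber myocardium gains contractile and metabolic proteins, endocardial cells in the canal between the chambers give rise to cushion mesenchyme, and cells of the proepicardium begin to cover the myocardium. Before that, Nodal, fibroblast growth factor (FGF) and retinoic acid signals pattern the mesoderm from which the tube forms, and Nodal signalling in the left lateral plate sets the left-right axis.

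Expression was given by the authors as FPKM (sequenced fragments per kilobase of transcript, relative to all fragments mapped). The median FPKM of the 10018 tested genes, those averaging 1 FPKM or more across all 8 libraries, was 9.90 and 9.55 in the E8.5 and 4.31 and 4.48 in the E9.5 WT libraries. Thus most deposited values fell with stage, with a change of -0.84 (log2) for the median gene. At E9.5 a smaller set of genes held more of the total. The 100 most abundant features with loci of at least 300 bp held 37.4% and 41.3% of it at E8.5, against 53.1% and 52.3% at E9.5. To describe genes relative to the median gene, each library was divided by the median ratio of its genes to their mean level, which set the median change to -0.04. All levels below are these scaled FPKM, with replicate 1 before replicate 2, and all changes are differences of log2(scaled FPKM + 1), E9.5 minus E8.5, unless another scale is named. The pseudocount of 1 understates changes of low genes. In bulk hearts, fewer cells of a type and less RNA per cell cannot be told apart.

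A gene was said to have risen or fallen at an adjusted p under 0.05 (limma, Benjamini-Hochberg over the 10018 genes) and a change of at least 1.5-fold. By this rule 321 genes rose and 69 fell, which is 3.2% and 0.689% of those tested, and 82.3% of the calls were rises. As deposited, 140 genes were called higher and 4683 lower, so that 2.90% of the calls were rises. Without adjustment 1174 and 683 genes passed. The 2 libraries of each stage did not overlap for any of the 390 called genes, a property shared by 58.5% of all tested genes. Since their stages did not overlap, all 390 had to keep their direction when any single WT library was left out. They also kept at least a 1.5-fold change, but fewer then passed the test. Of the called genes, 3 that rose, *Myoz2* and *Sox9* among them, and 11 that fell averaged 1 FPKM only through the WT stage in which they were high. Without E8.5 replicate 1 or 2, 7 and 37 genes were called higher and 5 and 35 lower. Without E9.5 replicate 1 or 2, 16 and 130 were called higher and 6 and 42 lower.

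**Figure D1:**
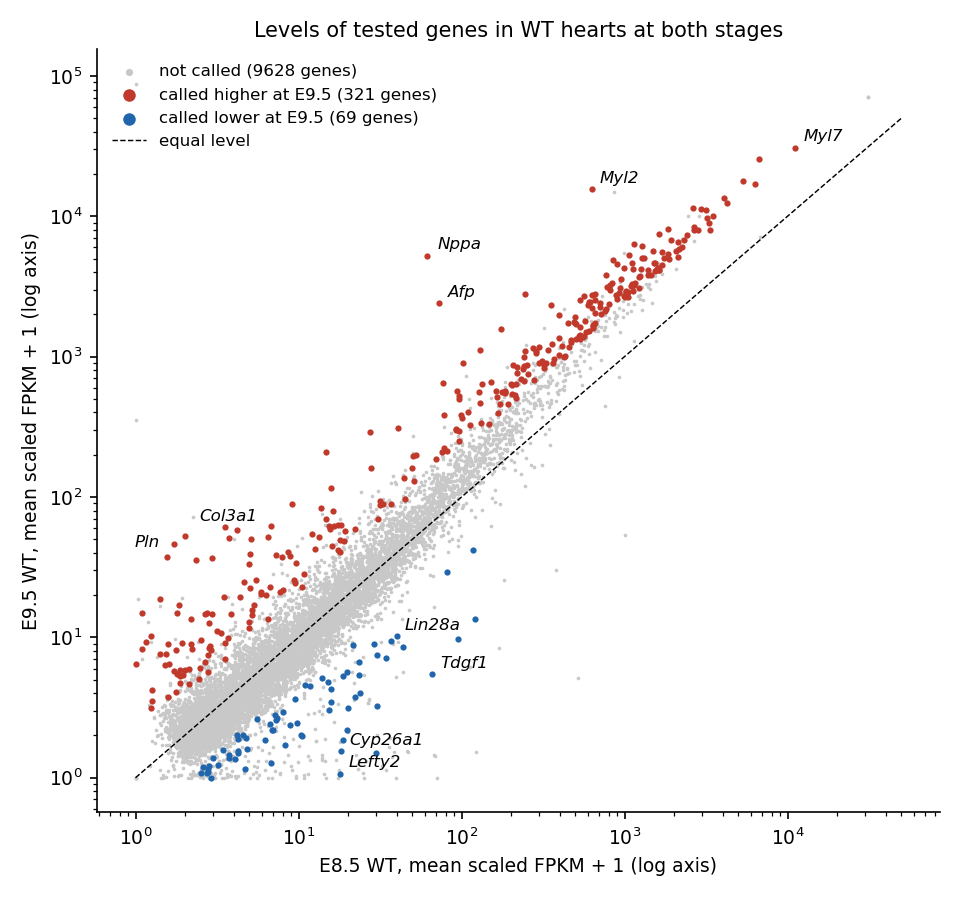
Mean scaled FPKM + 1 of the 10018 tested genes in E8.5 WT (x axis) and E9.5 WT hearts (y axis), both on log axes, with the mean of 2 libraries per stage. Red points are the 321 genes that rose, blue points the 69 that fell, and the dashed line marks equal levels. Most genes above 1000 scaled FPKM lie above the line.

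The change depended on the level of the gene. Of the 167 genes with a mean of at least 1000 scaled FPKM over the 4 WT libraries, all 167 lay above the median gene, 103 rose (61.7%) and the median change was 1.49. Among the 685 genes from 100 to 1000 the median change was 0.77 and 13.9% rose. Of the 2986 genes from 10 to 100, 1.84% rose, and of the 6180 genes under 10, 1.10% rose, with median changes of 0.08 and -0.18. The slope was also present in cKO hearts, where the median changes from the highest to the lowest band were 0.97, 0.38, 0.03 and -0.14. What sets the slope was not tested. Quantile normalization, which gives all libraries the same distribution of values, removes such a slope by construction. With it 88 genes were called higher and 27 lower, of which 82 and 26 were also called on the median-ratio scale. Of the 79 called genes named in the text, 34 were also called on the quantile scale. Those not called include *Pf4*, *Tnnc2*, *Tgfbr3*, *Sf1* and *Igfbp4* (adjusted p 0.0834, 0.0578, 0.0909, 0.13 and 0.0694) as well as those given below. Counts of abundant gene groups are therefore set beside the share of their level band and the quantile values.

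**Figure D2:**
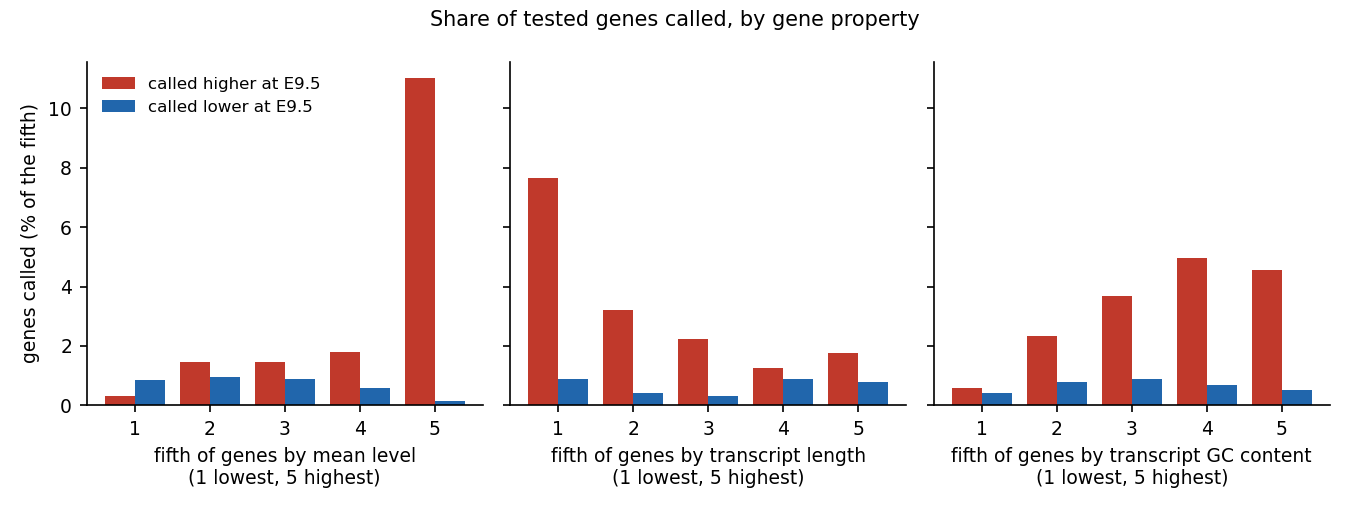
Share of tested genes that rose (red) or fell (blue), in percent, for 5 bins of equal size ordered by mean level over the 4 WT libraries (left), transcript length (middle) and transcript GC content (right). In the highest bin by level 11.0% of genes rose, against 0.299% in the lowest, and in the bin of shortest transcripts 7.65% rose.

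Genes of the contractile apparatus were among those that rose. Cardiac muscle myosin chains and their binding proteins, which form the thick filament, rose in 8 of 10 tested genes and fell in 0, with a median change of 2.14 against -0.04 over all tested genes. The median level of the list was 526 scaled FPKM, in the band where 13.9% of genes rose. However, *Myl2*, *Myl3*, *Myl4* and *Myl7* averaged above 1000, in the band where 61.7% rose. *Myl2*, the regulatory light chain of ventricular myosin (chromosome 5, 122100980 to 122106854), had 405 and 849.6 at E8.5 and 11192 and 20135 at E9.5. Both E9.5 values were well above both E8.5 values. Its change was 4.68 (SE 0.55, limma adjusted p 0.0106), 25.0-fold between the means. *Myl7*, the light chain of atrial myosin and the most abundant of these genes, had 7946 and 14284 at E8.5 and 32964 and 28616 at E9.5, a change of 1.53 (SE 0.31, adjusted p 0.0374). This was close to the median of its level band, and on the quantile scale *Myl7* changed by -0.34, so its direction depends on the scaling. *Myl2*, at 3.41 on that scale, kept its direction without passing (adjusted p 0.0555).

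The heavy chains behaved alike in direction. *Myh6*, the alpha heavy chain, had 159 and 331 at E8.5 and 1195 and 1010.3 at E9.5 (change 2.26, SE 0.38, adjusted p 0.0234). *Myh7*, the beta heavy chain, had 88.0 and 168 at E8.5 and 503 and 1737 at E9.5 (change 2.93, SE 0.61, adjusted p 0.0404). For *Myh7* the E9.5 replicates differed more than the E8.5 ones did. The essential light chains *Myl3* and *Myl4* rose by 2.55 (SE 0.39, adjusted p 0.0175) and 2.17 (SE 0.29, adjusted p 0.0124), and *Mybpc3*, cardiac myosin-binding protein C, by 2.10 (SE 0.44, adjusted p 0.0423). *Mylk3* and *Mybphl* did not pass the test. Under quantile normalization 0 of the 10 were called, although 9 of 10 changes stayed positive and their median was 1.16.

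Of 14 tested thin-filament and related genes 6 rose and 0 fell, with a median change of 1.63. Their median level was 712 scaled FPKM, in the band where 13.9% of genes rose. Most of the 6 that rose, such as *Actc1* and *Tnni1*, averaged above 1000, in the band where 61.7% rose. *Actc1*, cardiac alpha-actin (chromosome 2, 114047284 to 114052875), had 5233 and 8118 at E8.5 and 25339.9 and 26208 at E9.5, a change of 1.98 (SE 0.29, adjusted p 0.0157). *Tnni3*, the troponin I of the adult heart, had 117 and 229 at E8.5 and 1813 and 1345 at E9.5 and rose by 3.25 (SE 0.59, adjusted p 0.028). *Tnni1*, the troponin I of the embryonic heart, was higher at both stages, with 1067 and 1554 and then 4931 and 5189, and rose by 1.97 (SE 0.35, adjusted p 0.0278). Both troponin I genes rose, and the adult one by more in its mean change, a difference that was not tested. *Tnnt2*, cardiac troponin T, changed by 1.80 (SE 0.47, adjusted p 0.0823) and did not pass. The quantile median of the list was 0.31, with 0 of 14 called and 9 changes positive, among which *Actc1* had 0.35. *Tnnc2*, the fast skeletal troponin C, was in no list and was singled out after its values were seen. It fell, from 6.35 and 8.09 to 1.04 and 0.399 (change -2.27, SE 0.37, adjusted p 0.0216).

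Of 24 tested titin, Z-disc and M-band genes 5 rose and 0 fell, with a median of 0.57 (0.65 on the quantile scale). On that scale *Myoz2* alone was called, and *Csrp3*, *Actn2*, *Des* and *Hspb7* had adjusted p of 0.166, 0.171, 0.0625 and 0.146. The Z-disc protein genes *Csrp3*, *Actn2* and *Myoz2* rose by 2.78 (SE 0.43, adjusted p 0.0175), 2.46 (SE 0.49, adjusted p 0.0376) and 2.79 (SE 0.39, adjusted p 0.0151). *Myoz2* was near 0 at E8.5, with 0.0482 and 0.145, and had 3.99 and 10.5 at E9.5. *Des*, the muscle intermediate filament, rose by 2.26 (SE 0.28, adjusted p 0.0108), and *Hspb7*, a small heat shock protein gene of the heart, by 1.99 (SE 0.39, adjusted p 0.0366). *Ttn*, the giant spring protein of the sarcomere, had 3.42 and 5.92 at E8.5 and 5.21 and 9.62 at E9.5, values that overlap. E8.5 replicate 1 was below replicate 2 in 10 of 10 myosin genes, 13 of 14 thin-filament genes and 23 of 24 genes of the Z-disc list, against 47.4% of all tested genes. The part of this difference between the E8.5 libraries in the rises was not tested. Each rise named here kept its direction against either library alone, as must follow where the stages do not overlap.

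**Figure D3:**
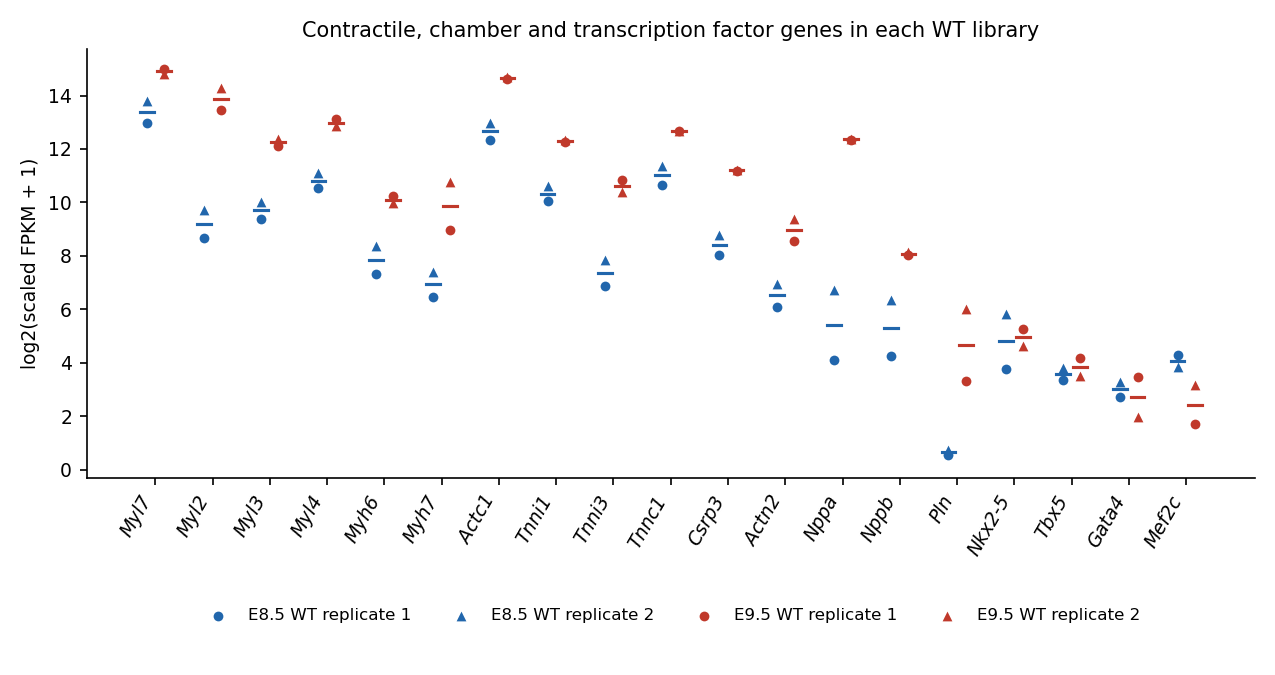
Level of 19 cardiac genes in each WT library as log2(scaled FPKM + 1) on a linear axis, with circles for replicate 1, triangles for replicate 2, blue for E8.5, red for E9.5 and short lines at the mean of the 2 libraries. *Nppa* and *Myl2* show the widest gaps between stages, *Pln* starts near 0, and of the transcription factors at the right all but *Mef2c* overlap between stages.

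Promoter sequences are shown for *Nppa*, the called gene with the largest rise, and for 3 of the 4 contractile genes whose promoters held a CArG box, the binding motif of serum response factor (the other was *Acta1*). They are the 250 bases before the RefSeq start (GRCm38.p6), 5′ to 3′ on the strand of the gene, and capitals mark motif matches on either strand.
*Nppa* (chr4:148000472-148000721, plus strand): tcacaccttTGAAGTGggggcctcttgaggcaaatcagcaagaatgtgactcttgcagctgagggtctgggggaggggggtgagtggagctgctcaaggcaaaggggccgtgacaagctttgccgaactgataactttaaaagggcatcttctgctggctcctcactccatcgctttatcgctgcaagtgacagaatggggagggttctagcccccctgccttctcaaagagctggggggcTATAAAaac
*Myl7* (chr11:5898783-5899032, minus strand): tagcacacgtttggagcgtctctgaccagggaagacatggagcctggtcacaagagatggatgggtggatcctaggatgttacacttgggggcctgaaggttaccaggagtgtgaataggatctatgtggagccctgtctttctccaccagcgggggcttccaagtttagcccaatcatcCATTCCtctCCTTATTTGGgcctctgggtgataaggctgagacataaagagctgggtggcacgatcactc
*Myl3* (chr9:110763428-110763677, plus strand): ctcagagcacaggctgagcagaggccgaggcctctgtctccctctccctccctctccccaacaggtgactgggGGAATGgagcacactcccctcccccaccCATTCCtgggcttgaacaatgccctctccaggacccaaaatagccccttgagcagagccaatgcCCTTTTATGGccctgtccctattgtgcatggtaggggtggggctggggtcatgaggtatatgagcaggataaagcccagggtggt
*Actc1* (chr2:114052876-114053125, minus strand): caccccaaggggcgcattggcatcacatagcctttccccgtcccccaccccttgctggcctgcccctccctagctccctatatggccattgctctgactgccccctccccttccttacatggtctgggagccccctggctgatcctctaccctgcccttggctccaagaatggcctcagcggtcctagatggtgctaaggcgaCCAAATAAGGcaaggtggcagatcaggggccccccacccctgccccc
In *Nppa* the capitals are a TNAAGTG match (the NKE motif bound by NKX2-5) and a TATAAA. In *Myl7* they are a CATTCC (the MCAT motif bound by TEAD factors) and a CArG box, in *Myl3* a pair of CATTCC matches and a CArG box, and in *Actc1* a CArG box alone. No match overlapped another in these 4 windows. Of 32851 RefSeq promoters of this length, 12.6% held CATTCC, 1.47% a CArG box, 12.4% TATAAA and 10.1% TNAAGTG. RefSeq promoters matched 23 of the 24 tested myosin and thin-filament genes. Among their 28 promoters, 42.9% held CATTCC, 14.3% a CArG box, 14.3% TATAAA and 3.57% TNAAGTG. For the genes that rose, of which 247 of 321 matched, with 324 promoters, the shares were 17.3%, 2.78%, 11.7% and 8.02%. For the genes that fell, of which 49 of 69 matched, with 65 promoters, they were 7.69%, 6.15%, 6.15% and 10.8%, and for all tested genes 10.9%, 1.29%, 6.43% and 7.59%. These are matches of letters and not measured binding.

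Genes of chamber formation included the largest rise among the called genes. *Nppa*, which encodes atrial natriuretic peptide and marks working chamber myocardium (chromosome 4, 148000722 to 148002074), had 16.2 and 105 at E8.5 and 5181 and 5296 at E9.5. Its E9.5 libraries were nearly equal and its E8.5 libraries differed several-fold from each other. The change was 6.94 (SE 0.76, adjusted p 0.0088; 6.23 on the quantile scale, adjusted p 0.0202), 86.5-fold between the means. The neighbouring natriuretic peptide gene *Nppb* had 17.9 and 81.0 at E8.5 and 259 and 283 at E9.5, with a change of 2.79 (SE 0.73, adjusted p 0.0831) that did not pass. *Cited1*, a transcriptional coregulator gene expressed in chamber myocardium, rose from 60.3 and 92.8 to 397 and 364 (change 2.33, SE 0.49, adjusted p 0.0413; 1.69 on the quantile scale, adjusted p 0.2). Of 13 tested genes of this list 2 rose and 0 fell, and the median change was 0.30. The remaining 11, *Hey1*, *Hey2*, *Irx3*, *Irx4*, *Tbx3* and *Tbx20* among them, did not pass.

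For calcium cycling and conduction, 1 of 22 tested genes rose, 0 fell, and the median change was 0.27. That gene was *Pln*, phospholamban, the inhibitor of the sarcoplasmic reticulum calcium pump (chromosome 10, 53337686 to 53345999). It had 0.474 and 0.666 at E8.5 and 9.09 and 63.4 at E9.5, a change of 4.02 (SE 0.71, adjusted p 0.0262). The E9.5 libraries were far apart, but each was above both E8.5 libraries. *Atp2a2*, the pump itself, had 22.1 and 35.6 at E8.5 and 44.6 and 17.4 at E9.5, and *Ryr2*, the calcium release channel, had 0.765 and 1.34 and then 0.864 and 0.804. Neither differed between stages beyond its replicates. *Casq1*, calsequestrin 1, changed by 2.04 (SE 0.47, adjusted p 0.0593) with separate groups but did not pass.

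Of 14 tested cardiac transcription factor genes 0 rose and 0 fell by limma, and the median change was -0.08. At an unadjusted p under 0.05, 0 were higher and 2 lower, and 0 were called on the quantile scale. *Nkx2-5* had 12.7 and 56.2 at E8.5 and 37.6 and 23.9 at E9.5, and *Gata4* had 5.62 and 8.69 and then 10.2 and 2.96. *Tbx5* had 9.17 and 12.9 and then 17.3 and 10.2, and *Hand2* had 7.23 and 4.33 and then 7.61 and 4.67. For all 4 the stages overlapped, and the SE of the change was 0.80 for *Nkx2-5*, 0.50 for *Gata4*, 0.31 for *Tbx5* and 0.37 for *Hand2*. *Mef2c* had 18.4 and 13.2 at E8.5 and 2.26 and 7.94 at E9.5, a change of -1.62 (SE 0.53, adjusted p 0.151) that did not pass. In the second heart field list 1 of 10 tested genes rose and 1 fell, with a median of -0.77. *Isl1*, the marker of this progenitor field, had 14.1 and 5.27 at E8.5 and 3.37 and 8.20 at E9.5 and did not pass. *Dkk3*, a secreted Dickkopf protein, rose from 3.42 and 4.63 to 19.6 and 23.4 (change 2.17, SE 0.33, adjusted p 0.0167).

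The 12 called genes with the largest falls included 4 genes of Nodal signalling, described together after their values were seen and with no test of the pathway. Its receptor and SMAD genes *Acvr2a*, *Acvr2b*, *Smad2*, *Smad3* and *Smad4* did not pass, with changes of -0.21, -0.67, -0.19, 0.34 and -0.76. Uncalled genes with larger negative changes included *Prl8a2* (-6.71), *S100a8* (-6.05) and *Fabp4* (-4.83). *Tdgf1* and *Cfc1* encode the EGF-CFC co-receptors of Nodal, *Foxh1* encodes the transcription factor that acts with SMAD proteins in Nodal signalling, and *Lefty2* encodes a Nodal antagonist and target. *Foxh1* (chromosome 15, 76668224 to 76669948) had 110.5 and 129.7 at E8.5 and 11.6 and 13.7 at E9.5, a change of -3.15 (SE 0.25, adjusted p 0.00303). *Cfc1* (chromosome 1, 34535648 to 34544311) had 18.9 and 16.7 and then 0.808 and 0.931 (change -3.33, SE 0.28, adjusted p 0.0031). In both genes the replicates were close and the stages far apart. *Lefty2* (chromosome 1, 180893108 to 180899107) had 19.8 and 14.0 at E8.5 and was listed at 0 and at 0.142 at E9.5 (change -4.05, SE 0.42, adjusted p 0.0088). *Tdgf1* (chromosome 9, 110939608 to 110946158) had 73.5 and 56.4 at E8.5 and 0 and 8.92 at E9.5, and fell by 4.38 on the log2 scale (SE 0.90, adjusted p 0.0404). Its E9.5 libraries differed, and against either alone it lay between -6.03 and -2.72. *Nodal* itself was under 0.2 in all 4 libraries and was not tested.

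Single genes of FGF and retinoic acid signalling also fell. *Fgf8*, a ligand of the second heart field and pharyngeal region, had 18.4 and 20.0 at E8.5 and 0.196 and 4.11 at E9.5 (change -3.03, SE 0.58, adjusted p 0.0329). *Spry4*, an inhibitor that FGF signalling induces, had 6.72 and 8.99 and then 1.24 and 1.49 (change -1.89, SE 0.23, adjusted p 0.0108). It was in no list and was named after its values were seen. *Cyp26a1*, the enzyme that degrades retinoic acid, had 18.5 and 15.8 at E8.5 and 0.160 and 0.942 at E9.5 (change -3.59, SE 0.31, adjusted p 0.00347). In the list of retinoic acid and *Hox* genes it was the single gene of 15 to fall, 0 rose, and the median was -0.22. Of 23 tested BMP and TGF-beta genes *Lefty2* fell and *Tgfbr3* rose, with a median of -0.19. Of 10 Notch and 17 Wnt pathway genes 0 rose and 0 fell by limma, with medians of -0.06 and -0.47. Unadjusted, 1 Notch and 3 Wnt genes were lower and 0 higher, and 0 were called on the quantile scale.

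**Figure D4:**
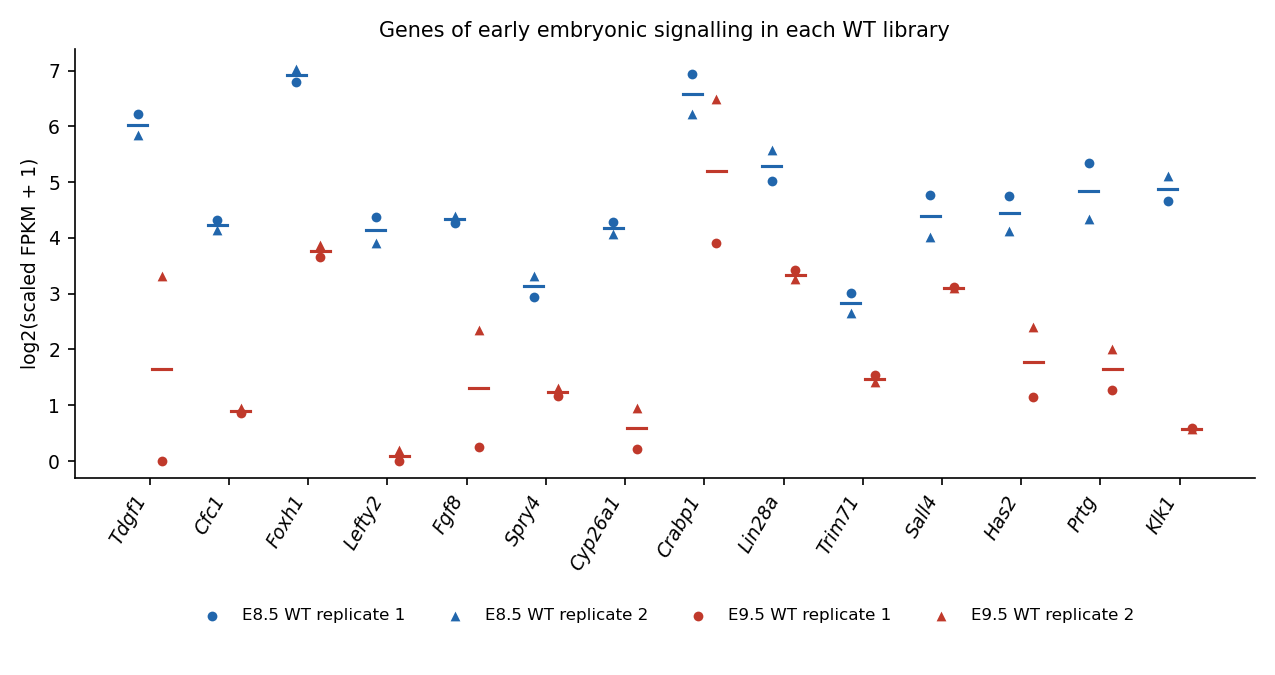
Level of 14 genes of early embryonic signalling and related genes in each WT library as log2(scaled FPKM + 1) on a linear axis, with circles for replicate 1, triangles for replicate 2, blue for E8.5, red for E9.5 and short lines at the mean of the 2 libraries. The stages are separate for every gene except *Crabp1*, and the E9.5 replicates of *Tdgf1*, *Fgf8* and *Crabp1* lie apart.

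Genes of the early embryonic state fell in 3 of 18 tested members, 0 rose, and the median change was -0.40. *Lin28a*, the RNA-binding protein that blocks maturation of let-7 microRNAs, had 31.4 and 46.6 at E8.5 and 9.72 and 8.59 at E9.5 (change -1.95, SE 0.31, adjusted p 0.0194). *Trim71*, a let-7 target gene, had 7.07 and 5.29 and then 1.90 and 1.67 (change -1.36, SE 0.25, adjusted p 0.0306). The third was *Tdgf1*. On the quantile scale *Lin28a* alone of the 3 was called, and *Trim71* changed by -1.19 (adjusted p 0.0971). *Lin28b*, the paralog, changed by -0.89 (SE 0.37, adjusted p 0.245) and did not pass. *Dgcr8*, the gene the study targeted, had 4.58 and 5.64 at E8.5 and did not pass (change -0.18, SE 0.39, adjusted p 0.821). Of 12 tested genes of microRNA processing 0 rose and 0 fell by limma, with a median of 0.14 (2 higher and 0 lower unadjusted, 0 on the quantile scale).

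The other called genes with the largest falls had varied roles. *Klk1*, a tissue kallikrein, had 24.2 and 33.6 at E8.5 and 0.502 and 0.482 at E9.5, and fell by 4.31 (SE 0.24, adjusted p 0.00102). *Has2*, the hyaluronan synthase of cardiac jelly, had 26.0 and 16.4 and then 1.23 and 4.26 (change -2.66, SE 0.44, adjusted p 0.0225), and *Hapln3*, a hyaluronan link protein, changed by -2.55 (SE 0.31, adjusted p 0.0108). *Prtg*, protogenin, a receptor-like protein of early embryos, changed by -3.19 (SE 0.40, adjusted p 0.0108), *Ifitm1* by -3.55 (SE 0.76, adjusted p 0.0459) and *Ndufa4l2*, a hypoxia-responsive mitochondrial gene, by -3.21 (SE 0.35, adjusted p 0.0088). *Ndufa4l2* overlaps *Shmt2*, and reads of overlapping genes may have been shared in counting. Of these 6, *Ifitm1* had the widest spread, with 132 and 54.8 at E8.5 and 15.3 and 2.35 at E9.5. On the quantile scale 9 of these 12 genes with the largest called falls were still called, and *Tdgf1*, *Ifitm1* and *Fgf8* kept changes of -4.46, -3.73 and -2.86 without passing.

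**Figure D5:**
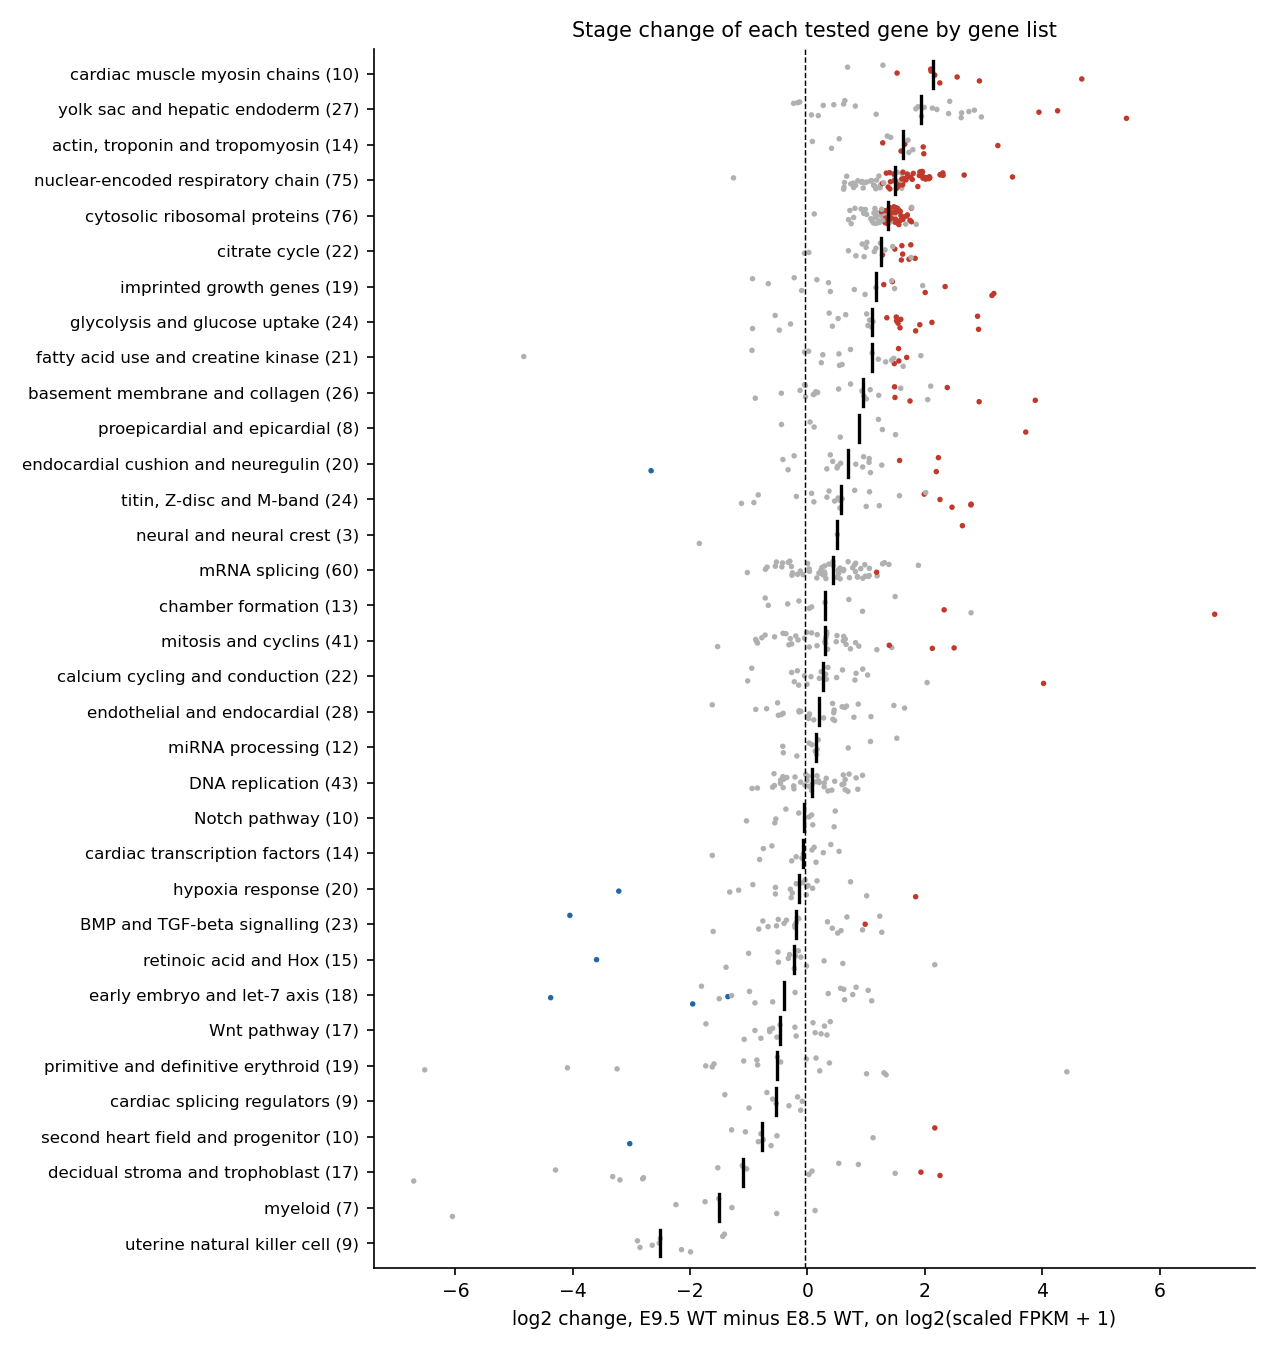
Log2 change from E8.5 to E9.5 WT, on log2(scaled FPKM + 1), of each tested gene in 34 gene lists, ordered by the list's median (black tick), with the number of tested genes in parentheses. Red points rose, blue points fell and grey points did not pass the test, and the dashed line marks the median of all 10018 tested genes. Contractile, respiratory chain and ribosomal protein lists lie to the right and uterine natural killer cell markers at the far left. Those markers were tested mainly through E8.5 replicate 1.

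Of 75 nuclear-encoded subunits of the respiratory chain and ATP synthase 41 rose, 0 fell and 74 lay above the median gene, with a median change of 1.49. Of 24 glycolysis genes 11 rose and 0 fell (median 1.10), and of 22 citrate cycle genes 8 rose and 0 fell (median 1.26). These are abundant genes. In the highest of 5 bins by level were 73 of the 75 respiratory chain, 20 of the glycolysis and 19 of the citrate cycle genes. The median levels of the lists were 487, 276 and 145 scaled FPKM, in the band from 100 to 1000 where 13.9% of genes rose. Most glycolysis genes that rose, such as *Ldha*, *Eno1* and *Pgam1*, and some respiratory chain genes, such as *Cox8a*, averaged above 1000, where 61.7% rose. On the quantile scale the medians were 0.39, 0.03 and 0.64, and 1, 2 and 0 genes were called higher. E8.5 replicate 1 was below replicate 2 in 65 of the 75, 15 of the 24 and 16 of the 22 genes, against 47.4% of all tested genes. The part of this offset in the rises was not tested.

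Isoforms of the same enzyme had unlike changes, in both directions, and no difference within a pair was tested. *Cox6a2*, the heart and muscle isoform of cytochrome c oxidase subunit 6a, had 16.2 and 36.8 at E8.5 and 310.2 and 265 at E9.5 (change 3.49, SE 0.71, adjusted p 0.0388; 3.08 on the quantile scale, adjusted p 0.113). The liver isoform *Cox6a1* was higher, with 526 and 479 and then 1917 and 1517, and rose by 1.76 (SE 0.26, adjusted p 0.0159). *Cox8b*, the muscle isoform of subunit 8, was listed at 0 in both E8.5 libraries and had 4.33 and 6.62 at E9.5 (adjusted p 0.0088). Its counterpart *Cox8a* had 839 and 1305 and then 6029 and 4483. Both muscle isoforms thus remained well below the general ones at E9.5. *Hk1*, hexokinase 1, had 10.7 and 18.9 at E8.5 and 102 and 127 at E9.5 and rose by 2.92 (SE 0.38, adjusted p 0.0113). *Hk2* had 22.3 and 20.5 and then 11.7 and 9.74, a change of -0.94 (SE 0.24, adjusted p 0.077) that did not pass. At E8.5 *Hk2* had the higher level in both libraries and at E9.5 *Hk1* did. *Ldhb*, the heart lactate dehydrogenase subunit, had 45.3 and 34.3 and then 386 and 234 and rose by 2.90 (SE 0.36, adjusted p 0.0108), and *Ldha* had 3473 and 3547 and then 10642 and 9451, a rise of 1.51 (SE 0.26, adjusted p 0.0239) that on the quantile scale was -0.31. For other pairs the muscle isoform had the smaller change on the median-ratio scale and did not pass. *Cox7a1* changed by 0.67 and *Cox7a2* by 1.22 (adjusted p 0.489 and 0.0501), *Pgam2* by 1.06 and *Pgam1* by 1.52 (adjusted p 0.234 and 0.0212), and *Eno3* by 0.52 and *Eno1* by 1.59 (adjusted p 0.496 and 0.0157). On the quantile scale *Eno3* and *Eno1* changed by -0.31 and -0.09. There the order was the other way for *Cox7a1* and *Cox7a2* (0.08 and -0.14) and for *Pgam2* and *Pgam1* (0.05 and 0.02). *Hk1*, *Ldhb* and *Cox8b* were also called higher on the quantile scale, with changes of 2.67, 2.43 and 2.77.

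Among 21 tested genes of fatty acid use and creatine kinase 4 rose and 0 fell, with a median of 1.10 (0.59 on the quantile scale). They were *Acadl* and *Hadha*, enzymes of beta-oxidation, *Fabp3*, the heart fatty acid-binding protein, and *Mb*, myoglobin. On the quantile scale *Acadl* alone was called, and *Hadha*, *Fabp3* and *Mb* had adjusted p of 0.0553, 0.102 and 0.0613. *Fabp3* had 47.5 and 49.5 at E8.5 and 152 and 166 at E9.5 (change 1.69, SE 0.30, adjusted p 0.0257), and *Mb* had 1.19 and 0.809 and then 4.75 and 4.93 (change 1.55, SE 0.30, adjusted p 0.035). The replicates of both genes were close. *Fabp4*, which capillary endothelium expresses, had 28.0 and 63.5 at E8.5 and 0.775 and 0.297 at E9.5, and its change of -4.83 did not pass (SE 1.98, adjusted p 0.239).

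Cytosolic ribosomal protein genes rose in 42 of 76 tested members, 0 fell and all 76 lay above the median gene, with changes from 0.12 to 1.85 and a median of 1.37, but on the quantile scale the median was -0.19, 19 of 76 were positive and 0 were called. Their median level of 1746 scaled FPKM puts them in the band where 61.7% of genes rose and the median change was 1.49. Splicing factor genes, at a lower level, rose in 1 of 60 (*Sf1*), with a median of 0.44 that was -0.08 on the quantile scale. Of 9 cardiac splicing regulators, *Rbm20*, *Rbm24* and *Mbnl1* among them, 0 rose and 0 fell by limma and 0 lay above the median gene (0 higher and 2 lower unadjusted, 0 on the quantile scale).

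The cell cycle was examined in a list of DNA replication genes and a list of mitosis and cyclin genes. Of 43 DNA replication genes 0 rose and 0 fell by limma, 4 were higher and 2 lower unadjusted, and the median of 0.07 was -0.17 on the quantile scale, where 0 were called. Of 41 mitosis and cyclin genes 3 rose, 7.32% against 3.2% of all tested genes, and 0 fell, with a median of 0.30 (-0.02 on the quantile scale). The median level of this list was 25.5 scaled FPKM, in the band where 1.84% of genes rose. The 3 were the D-type cyclin genes *Ccnd1* and *Ccnd2* and *Cdk4*, a kinase partner of D-type cyclins in the G1 phase. The further D-type cyclin *Ccnd3* and partner kinase *Cdk6* changed by 1.44 and -0.32 and did not pass (limma adjusted p 0.0656 and 0.574). *Ccnd1* had 14.1 and 8.27 at E8.5 and 69.8 and 36.7 at E9.5 (change 2.13, SE 0.43, adjusted p 0.0388), and *Ccnd2* had 34.3 and 19.5 and then 107 and 213 (change 2.50, SE 0.45, adjusted p 0.0278). On the quantile scale 0 of the 3 were called. *Ccnd1* and *Ccnd2* changed by 2.01 and 2.18 there (adjusted p 0.0728 and 0.0665), and *Cdk4* by 0.07 (adjusted p 0.921) against 1.39 on the median-ratio scale.

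Some fibrillar collagen genes rose, while *Col5a1* and *Col2a1* changed by -0.89 and 0.12 and did not pass (limma adjusted p 0.105 and 0.922). Of 26 basement membrane and collagen genes 6 rose and 0 fell, with a median of 0.95 and a quantile median of 0.91. *Col3a1* (chromosome 1, 45311538 to 45349706) had 4.10 and 1.37 at E8.5 and 53.0 and 47.9 at E9.5, and *Col1a1* had 5.40 and 2.70 and then 24.8 and 51.9. They rose by 3.88 (SE 0.39, adjusted p 0.0088) and 2.93 (SE 0.44, adjusted p 0.0167) and were called on the quantile scale too. *Col1a2*, *Col5a2*, *Sparc*, a collagen-binding matrix protein, and *Hspg2*, perlecan, made up the 6. Of these, *Col1a2* and *Sparc* were not called on the quantile scale (adjusted p 0.0786 and 0.18). Cushion genes rose in 3 of 20 and *Has2* fell. *Sox9*, a transcription factor of cushion mesenchyme, rose from 1.10 and 0.448 to 8.95 and 5.42 (change 2.20, SE 0.30, adjusted p 0.0126). *Fbln2* and *Adamts1*, a fibulin and a protease that cleaves versican, rose by 2.23 (SE 0.38, adjusted p 0.0239) and 1.57 (SE 0.25, adjusted p 0.0189).

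The epicardial list had 8 tested genes, of which 1 rose. *Upk3b*, a uroplakin expressed in mesothelium (chromosome 5, 136038496 to 136044993), had 0.353 and 0.484 at E8.5 and 20.4 and 15.3 at E9.5, a change of 3.72 (SE 0.27, adjusted p 0.00256). *Wt1* had 2.15 and 2.43 and then 4.16 and 3.55, and *Tcf21* had 4.48 and 1.65 and then 18.6 and 4.93. Both were higher in each E9.5 library than in each E8.5 library, and neither passed the test. *Tbx18* had 0 and 0.0152 at E8.5 and 1.37 and 0.634 at E9.5 and was too low to be tested. Of 28 endothelial and endocardial genes 0 rose and 0 fell by limma, with a median of 0.19 (4 higher and 2 lower unadjusted, 0 on the quantile scale). *Pecam1* had 10.1 and 11.4 and then 14.7 and 15.7, and *Eng*, endoglin, had 14.1 and 19.3 and then 59.2 and 49.6 (change 1.66, SE 0.38, adjusted p 0.0566).

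Imprinted growth genes rose in 6 of 19 tested members, 0 fell, and the median was 1.17 (0.64 on the quantile scale). *Igf2*, insulin-like growth factor 2 (chromosome 7, 142650768 to 142666816), had 85.9 and 116 at E8.5 and 1036 and 765 at E9.5, a change of 3.14 (SE 0.34, adjusted p 0.0088). *Igf2r*, which clears it, had 13.0 and 19.8 and then 38.8 and 43.2 and rose by 1.30 (SE 0.27, adjusted p 0.0419). *Mest*, *Meg3*, *Dlk1* and *Ndn* rose as well. On the quantile scale *Igf2* and *Meg3* were still called, and *Mest* changed by 0.85 there against 2.35 on the median-ratio scale (adjusted p 0.367). *Dlk1*, *Ndn* and *Igf2r* had adjusted p of 0.0781, 0.13 and 0.112 there. *H19*, which shares its imprinted domain with *Igf2*, had 215 and 259 at E8.5 and 622 and 352 at E9.5 and did not pass (change 0.98, SE 0.43, adjusted p 0.263). *Dlk1* had 1.35 and 2.51 at E8.5, and its E9.5 libraries differed several-fold (62.3 and 9.68).

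Markers of cells from outside the heart tube were examined in the same libraries. Yolk sac and hepatic endoderm genes rose in 3 of 27 tested members and 0 fell, with a median of 1.94. Without E9.5 replicate 1 the median was 1.06, and on the quantile scale only *Serpina1b* of the 3 was called. *Afp* had 23.7 and 120.2 at E8.5 and 2712 and 2070.1 at E9.5 (change 5.44, SE 0.91, adjusted p 0.0225), and *Trf* and *Serpina1b* rose by 3.95 (SE 0.79, adjusted p 0.037) and 4.26 (SE 0.78, adjusted p 0.0289). *Serpina1b* is 1 of a family of near-identical copies, so its reads may be split among them. The summed level of the 32 listed genes was 1514 and 3082 at E8.5 and 11309 and 8246 at E9.5. *Alb* was listed at 0 or under 0.02 in 3 of the 4 libraries and at 5.84 in E9.5 replicate 1. Erythroid genes were abundant, and 0 of 19 rose or fell by limma (2 higher and 5 lower unadjusted, 0 on the quantile scale). Their median change was -0.51, with 8 above and 11 below the median gene. The summed level, in which globins weigh most, was 7612 and 20445 at E8.5 and 21584 and 44727 at E9.5. The erythroid marker *Gata1* had 4.46 and 8.08 and then 1.14 and 1.45. *Hbb-y*, an embryonic globin, had 305 and 1422 and then 10377 and 19264 (change 4.42, SE 1.19, adjusted p 0.0898), while *Hbb-bh1* had 3224 and 10299 and then 4585 and 9682. The globin genes are close copies, so these 2 levels are uncertain. *Pf4*, a platelet and megakaryocyte chemokine, rose from 2.08 and 0.642 to 46.4 and 23.0 (change 3.91, SE 0.83, adjusted p 0.0433).

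Markers of uterine natural killer cells were high in E8.5 replicate 1 alone, and those of other uterine and myeloid cells were not. *Gzmc*, a granzyme of uterine natural killer cells, had 62.7 in E8.5 replicate 1 and 0.189, 0.231 and 0.177 in the other WT libraries, and the summed level of the 17 genes of this list was 342 there and between 0.693 and 2.60 elsewhere. Of 9 tested, 0 were called by limma (0 higher and 2 lower unadjusted, 0 on the quantile scale) and 0 lay above the median gene, yet without E8.5 replicate 1 the median of the list changed from -2.51 to 0.02. These genes averaged 1 FPKM, and so were tested, mainly through E8.5 replicate 1, which fixed their place below the median gene in advance. The myeloid gene *S100a8* had 197 and 44.3 at E8.5 and 0 and 1.05 at E9.5, and *Prl8a2*, a decidual prolactin, had 289.6 and 748 and then 1.61 and 6.62. The summed decidual level was 591 and 1174 at E8.5 and 987 and 1120 at E9.5, and without *Des* and *Igfbp4* it was 388 and 917 and then 25.4 and 45.5. At E8.5 most of this reduced sum was *Prl8a2*, so its fall largely follows that gene. The stromal marker *Lum* had 2.08 and 3.86 at E8.5 and 6.83 and 14.2 at E9.5 and did not pass. For the stromal marker *Dcn* the stages overlapped, with a change of 0.026. Of 17 tested decidual genes 10 lay below the median gene and 7 above, with a median of -1.10. In this list *Des* and *Igfbp4*, which heart cells also express, rose and 0 fell. Of 20 neural genes 3 could be tested, and *Tubb3* rose. *Sox2*, *Pax3* and *Sox10* were under 0.4 in all 4 WT libraries. The part of these other cells in the stage changes was not tested. *Xist*, transcribed from the inactive X chromosome, had 2.70 in E8.5 replicate 1 and 1.66 in E9.5 replicate 1, and the Y-linked *Eif2s3y* had 6.65 and 12.7 in the 2 replicates numbered 2 and 0 in the 2 numbered 1. Each stage thus had 1 library of each kind.

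The remaining genes with the widest rises were the pseudogene *Rps15a-ps6* and the histone H3 genes *Hist2h3c2* and *Hist2h3b*. *Rps15a-ps6* had 1.46 and 0.587 at E8.5 and 58.6 and 44.3 at E9.5 (change 4.72, SE 0.30, adjusted p 0.00137). The histone genes rose by 4.03 (SE 0.43, adjusted p 0.0088) and 3.71 (SE 0.46, adjusted p 0.0108). All 3 have near-identical copies elsewhere in the genome, so the assignment of reads to them is uncertain.

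The stage change of WT hearts was last set beside that of cKO hearts, which share no libraries with it. Of the 321 genes that rose in WT, 301 were also at least 1.5-fold higher at E9.5 in cKO hearts, and of the 69 that fell 51 were also at least 1.5-fold lower. These are 93.8% and 73.9%, against 18.8% and 20.5% of all tested genes that were 1.5-fold higher or lower in cKO hearts, where the slope with level was also present. By the same rule 400 genes rose and 77 fell in cKO hearts. The difference between the changes itself was called for 4 genes, 0.0399% of those tested, and for 675 at an unadjusted p. *Nppa* rose by 7.14 in cKO hearts (adjusted p 0.00618) and the difference did not pass (adjusted p 0.983). *Fgf8*, which fell in WT, changed by 0.01 in cKO hearts, and that difference did not pass either (adjusted p 0.562). A difference that did not pass does not show that the genotypes changed alike, since the SE of a difference is larger than that of either change.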

How the data were processed

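RNA of E8.5 and E9.5 mouse hearts was sequenced in 8 libraries. Per the labels, RNA was extracted with Trizol, treated with DNase, amplified with a SMARTer Ultra Low RNA kit and sequenced on a HiSeq2500, whereas the study's methods name Smart-seq2. The submitters' processing notes name BWA and mm9. Locus starts in the deposited table, however, lay within 1000 bp of GRCm38 gene starts for 91.7% of genes and of NCBIM37 starts for 5.1%, so coordinates are given as GRCm38. The authors deposited FPKM per gene. The program that computed them was not given in the sources used here. Read counts and absolute depth are unknown, so no counting interval is given.

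Of 24385 features, 10018 averaging 1 FPKM or more across the 8 libraries were tested. Each library was divided by its median ratio, and log2(scaled FPKM + 1) was fitted over the 4 groups with limma 3.58.1 (R 4.3.3), with empirical Bayes moderation and Benjamini-Hochberg adjustment. The procedure was tested on simulated data. Genes were named as the 12 widest rises and 12 widest falls among the called genes whose groups did not overlap, and as members of 34 gene lists. The comparison, the lists and other named genes were chosen with earlier results of these data known. Alternatives were the deposited, quantile and long-locus scalings, a pseudocount of 0.1, no filter or a mean of 5, fewer groups, a replicate block, GC removal and each library left out. A centred scale and a crossed pairing were added after seeing the data. An exact permutation test of 2 against 2 cannot go below 0.333. Figures and tables were made with Python 3.11.15, pandas 2.3.3, numpy 2.4.6 and matplotlib 3.10.9.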

Additional observations from a re-analysis of the deposited data

Results flagged for a closer look

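The stage change differed between WT and cKO hearts, by the test of the difference itself (limma, adjusted over 10018 genes), for 4 genes. For *Ndufa4l2* the difference, WT minus cKO, was -5.45 (SE 0.49, adjusted p 0.025), since it fell in WT and went from 11.3 and 6.20 to 47.5 and 39.6 scaled FPKM in cKO. For *H2-Ab1*, a class II histocompatibility gene, it was -4.02 (SE 0.39, adjusted p 0.025), with 10.5 and 9.52 then 2.98 and 4.12 in WT and 9.20 and 9.54 then 83.9 and 55.6 in cKO. For *Slc7a3*, a cationic amino acid transporter, it was -3.06 (SE 0.31, adjusted p 0.0253), with 0.812 and 0.592 then 0.162 and 0.311 in WT and 0.296 and 0.210 then 6.82 and 6.34 in cKO. *Slc7a3* was tested only through the E9.5 cKO libraries, with 5.12 and 4.22 deposited FPKM against 0.124 to 1.26 in the others. For the pseudogene *Rps15a-ps6* it was 4.40 (SE 0.42, adjusted p 0.025), with 0.822 and 1.17 then 1.20 and 1.78 in cKO. Under quantile normalization 0 differences were called.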

How the results depend on the processing

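Genes called higher and lower numbered 321 and 69. They numbered 140 and 4683 as deposited, 88 and 27 under quantile normalization, 119 and 6286 scaled to loci of at least 300 bp, 18 and 11 with no filter, 519 and 260 without the E8.5 cKO group, 470 and 160 with only the 4 WT libraries, and 400 and 137 with GC content removed. Leaving out 1 library gave 7 to 130 higher and 5 to 42 lower. The 4 differences between genotypes became 0 under quantile normalization, scaling to long loci, no filter and the replicate block, 2 with a pseudocount of 0.1 or a mean of 5 FPKM, and 0 to 20 with 1 library left out. Replicate numbers did not pair the samples (correlation of deviations -0.121), and a replicate block gave 130 higher and 30 lower. A crossed pairing, added after seeing the data, gave 268 and 51. Centred log2 values, also added then, gave 415 and 50. For single genes and lists, values here have the median gene of each setting set to that of the reported fit, so they differ slightly from the quantile values of the report. Of 1090 values of called genes named here, 3 reversed, all under quantile normalization, *Myl7* (-0.36), *Ldha* (-0.33) and *Eno1* (-0.11). Of 475 list medians, 3 crossed the median gene from a value at least 1.5-fold away from it (crossings from nearer values were not counted): ribosomal proteins under quantile normalization (-0.22), epicardial genes at a mean of 5 FPKM (-0.087) and uterine natural killer markers with 1 library left out (from -5.13 to 0.015, the latter without E8.5 replicate 1). Except for what the construction of each alternative sets, the cause was not tested.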
